A study of Mus musculus with 2 samples.

Results

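The let-7 microRNAs were measured in mouse heart at 9 loci, Mirlet7a-1, Mirlet7f-1, Mirlet7d, Mirlet7b, Mirlet7c-2, Mirlet7g, Mirlet7i, Mirlet7f-2 and Mir98, out of 2202 annotated miRNA genes. They are the let-7 and Mir98 loci that lie outside the clusters of mir-99/100, let-7 and mir-125 genes, and they were listed by name, with earlier results of these data known. The data are 2 libraries of short RNAs from total RNA of the hearts of males of B6CASTF1/J, an F1 hybrid of the B6 and CAST strains, aged 36 days by the age label (a free-text note has months in place of days). Both libraries form 1 group of biological replicates from males numbered apart, but they carry the same donor record, so SDs measure the spread between these samples (n = 2). No treatment, other tissue or other age was labelled, so no contrast between conditions can be made. Library 1 had 1999362 reads and library 2 had 1862526 reads on the sense strand of miRNA genes, and all levels below are counts per 1000000 of these reads (CPM). A count covers the whole hairpin and does not tell its 5p arm from its 3p arm.

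The let-7 miRNAs are an old family of short RNAs that lower the output of mRNAs matching their seed, bases 2 to 8 of the mature RNA. They rise as tissues mature and are abundant in adult organs, the heart among them. Each is cut by Drosha and Dicer from a hairpin, and in stem and fetal cells the protein Lin28 binds the hairpin loop and blocks that cutting. Known targets include Lin28 itself, Hmga2, Myc and Ras genes.

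All 9 loci matched a RefSeq hairpin and a mature 5p RNA of the GRCm38.p6 build, and the 5p RNAs are shown first because they decide which reads can be placed at a single locus. They are written 5′ to 3′ with the seed in capitals.
let-7a-5p of Mirlet7a-1: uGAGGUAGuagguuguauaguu
let-7f-5p of Mirlet7f-1 and Mirlet7f-2: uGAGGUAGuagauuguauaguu
let-7d-5p of Mirlet7d: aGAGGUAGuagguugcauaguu
let-7b-5p of Mirlet7b: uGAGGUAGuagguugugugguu
let-7c-5p of Mirlet7c-2: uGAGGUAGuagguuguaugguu
let-7g-5p of Mirlet7g: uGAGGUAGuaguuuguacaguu
let-7i-5p of Mirlet7i: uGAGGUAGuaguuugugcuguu
miR-98-5p of Mir98: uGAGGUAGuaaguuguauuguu
These are 8 distinct sequences of 22 bases, and each of the 9 loci carries the seed GAGGUAG. Among 1738 mature mouse sequences in the same table, 13 (0.748%) have this seed, and Mir1961 was the only gene outside the let-7 loci among them. All 9 loci are alike from base 2 to base 10, and the 8 sequences differ from one another at 1 to 6 positions (median 3 over 28 pairs).

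Against let-7a-5p, with positions counted from 1 at the 5′ end, let-7f-5p carries G12A and let-7c-5p carries A19G. let-7b-5p carries A17G and A19G, let-7g-5p carries G12U and U18C, and miR-98-5p carries G11A and A19U. let-7d-5p is the only one with a changed first base, through U1A, and also carries U16C. let-7i-5p differs most, through G12U, A17G, U18C and A19U.

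Counted let-7 reads were a large part of the uniquely placed miRNA reads in each library. The 9 loci together held 598519 reads, or 29.9% of assigned reads, in library 1 (exact Clopper-Pearson 95% interval 29.87% to 30.0%), and 504299 reads, or 27.1%, in library 2 (27.0% to 27.1%). The mean was 28.5% ± 2.02 (SD, n = 2). These and all later intervals cover counting error only, since the labels mention no molecular identifiers and PCR copies of reads are not independent molecules. A further 42.2% ± 0.987 of all sequenced reads mapped to several places and stand outside the gene counts. The level of a locus whose mature RNA is also made elsewhere is thus that of its uniquely placed reads alone. The total of assigned reads, 37.3% ± 1.11 of all reads, lacks such reads too. The share of the 9 loci among all miRNA reads of the heart was therefore not measured. Over all sequenced reads, the 9 loci took a mean of 10.6%.

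Nearly all of these reads came from Mirlet7i, Mirlet7g, Mirlet7b and Mirlet7d, which together gave 96.1% of the reads of the 9 loci in library 1 and 95.8% in library 2. Mirlet7i, on chromosome 10 (mm10, 122985640 to 122985724, minus strand), stood at 97459.6 CPM in library 1 and 87492 CPM in library 2, a mean of 92476 ± 7048 CPM. It ranked 2 among all miRNA genes in both libraries, after Mir378a (135849 and 150246 CPM), a rank among uniquely placed reads, in which any gene with copies elsewhere can stand too low. Its hairpin overlaps an exon of D630033A02Rik, annotated as a transcribed processed pseudogene.

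Mirlet7g, in an intron of the protein-coding gene Wdr82 (chromosome 9, 106178840 to 106178927, plus strand), stood at 86722 CPM in library 1 and 72246 CPM in library 2, a mean of 79484 ± 10236 CPM. It ranked 3 in both libraries by the same reads. Its lower library lay below both libraries of Mirlet7i, and its higher library lay just under the lower one of Mirlet7i. Mirlet7i exceeded Mirlet7g within each library, by 1.12 times in library 1 (95% interval 1.12 to 1.13) and 1.21 times in library 2 (1.20 to 1.22), but the means differed by less than the sum of their SDs.

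Mirlet7b stood at 50899 CPM in library 1 and 52342 CPM in library 2, a mean of 51621 ± 1021 CPM (chromosome 15, 85707319 to 85707403, plus strand). Mirlet7d stood at 52709.8 CPM in library 1 and 47434 CPM in library 2, a mean of 50072 ± 3731 CPM (chromosome 13, 48536012 to 48536114, minus strand). The ranges of this pair overlapped and their order turned between the libraries, so they did not differ beyond their spread. Both lay clearly under Mirlet7g, the ratio of Mirlet7g to Mirlet7b being 1.70 in library 1 and 1.38 in library 2.

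The other 5 loci were lower by a wide step. Mirlet7f-2, in an intron of the ubiquitin ligase gene Huwe1 (chromosome X, 151912346 to 151912428, plus strand), stood at 7238 and 7026 CPM in libraries 1 and 2, a mean of 7132 ± 149.8 CPM. Mirlet7d exceeded it 7.28 times in library 1 and 6.75 times in library 2. Mir98, also in an intron of Huwe1 (chromosome X, 151913214 to 151913321), stood at 2105 and 1674 CPM, a mean of 1889 ± 305 CPM.

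Mirlet7c-2 stood at 1241 CPM in library 1 and 1496 CPM in library 2, a mean of 1369 ± 181 CPM (chromosome 15, 85706603 to 85706697, plus strand). Mirlet7a-1 stood at 729.7 and 825 CPM in libraries 1 and 2, a mean of 777 ± 67.1 CPM (chromosome 13, 48538179 to 48538272, minus strand). Mirlet7f-1 was the lowest at 251 and 226 CPM, a mean of 238 ± 18.1 CPM (chromosome 13, 48537829 to 48537917, minus strand). From Mirlet7f-2 down, no ranges of neighbours overlapped. The gap between Mir98 and Mirlet7c-2 was the narrowest of these, at 1.70 times in library 1 and 1.12 times in library 2.

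At 1000 CPM or more in both libraries stood 7 of the 9 loci, against 63 of 2202 annotated miRNA genes (2.86%). At 10000 CPM or more stood 4 of the 9, against 15 of 2202 (0.681%), and at 100 CPM or more all 9, against 130 (5.9%). Since the loci were listed with earlier results known, these counts are a description. Every 5p RNA of the 9 loci has 22 bases, so levels were compared per locus. Divided by hairpin length, the order of the 9 loci was the same.

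**Figure D1:**
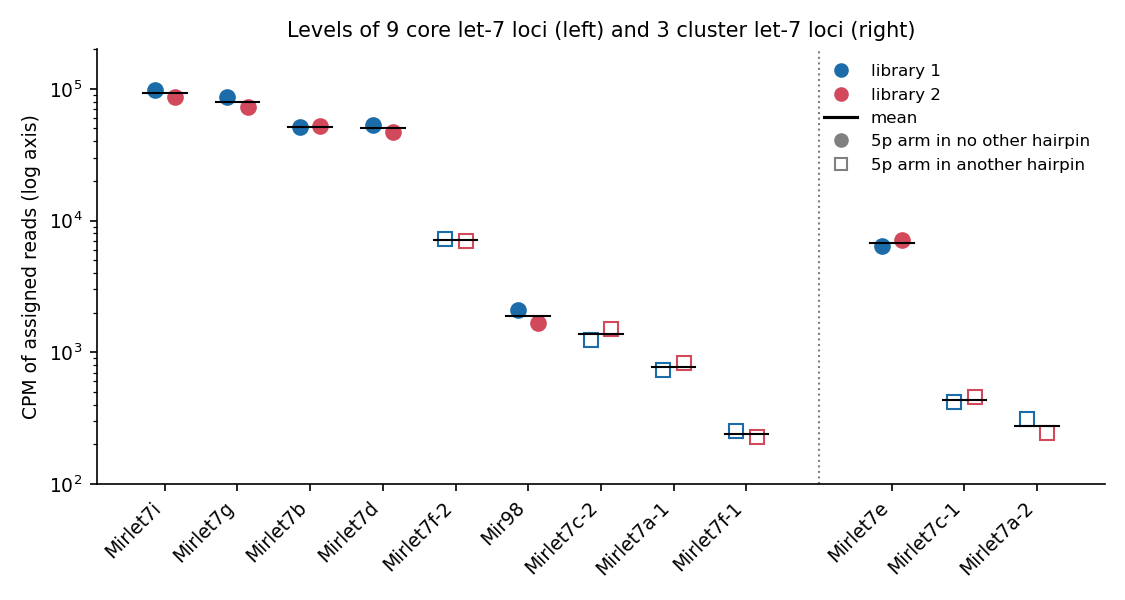
Each point is the level of a let-7 locus in 1 library, in CPM on a log axis, with black lines at the mean of the 2 libraries; filled circles mark loci whose 5p RNA is in no other annotated hairpin and open squares those whose 5p RNA is. Mirlet7i, Mirlet7g, Mirlet7b and Mirlet7d lie between 47434 and 97459.6 CPM, and the other 5 core loci between 226 and 7238 CPM.

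The loci differ in whether another hairpin holds the same mature RNA. The 5p RNA is in no other annotated miRNA hairpin for 5 loci, Mirlet7i, Mirlet7g, Mirlet7b, Mirlet7d and Mir98, and these gave 96.7% ± 0.265 of the reads of the 9 loci. The 4 loci whose 5p RNA is repeated in another hairpin, Mirlet7f-2, Mirlet7c-2, Mirlet7a-1 and Mirlet7f-1, gave 3.35% ± 0.265. The mean levels were 1889 to 92476 CPM for the 5 loci and 238 to 7132 CPM for the 4 loci, so the ranges overlapped through Mir98 and Mirlet7f-2. How many of the reads that mapped to several places came from the 4 loci was not tested.

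A 5p read from these 4 loci can be told from its copy only where it reaches past the mature RNA, and the 3 hairpin bases that follow it are shown here, in capitals, for each locus and its copy.
Mirlet7f-1: ugagguaguagauuguauaguuGUG
Mirlet7f-2: ugagguaguagauuguauaguuUUA
Mirlet7a-1: ugagguaguagguuguauaguuUUA
Mirlet7a-2: ugagguaguagguuguauaguuUAG
Mirlet7c-2: ugagguaguagguuguaugguuUUG
Mirlet7c-1: ugagguaguagguuguaugguuUAG
The copies of let-7f-5p part at the first base after the mature RNA, and those of let-7a-5p and let-7c-5p at the second. At the 5′ side, 1 base before the mature RNA was enough to tell each of these copies apart. The 3p RNAs differ between the copies of each 5p RNA, so 3p reads can separate them, but Mirlet7a-1 and Mirlet7c-2 carry the same 3p RNA, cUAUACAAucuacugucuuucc (seed in capitals).

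Loci with the same mature RNA nevertheless had unequal counts. Mirlet7f-2 exceeded Mirlet7f-1 by 28.8 times in library 1 (95% interval 26.4 to 31.6) and 31.2 times in library 2 (28.3 to 34.4). Mirlet7c-2 exceeded Mirlet7c-1, a let-7 locus of the mir-99a cluster, by 2.99 times (2.76 to 3.24) and 3.28 times (3.04 to 3.54). Mirlet7a-1 exceeded Mirlet7a-2, of the mir-100 cluster, by 2.36 times (2.14 to 2.59) and 3.40 times (3.06 to 3.78). The direction was the same in both libraries for all 3 pairs. These ratios compare uniquely placed reads only, and whether such reads were placed at the locus they came from was not tested.

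Neighbouring loci of 1 cluster differed far more than the libraries did. On chromosome 13, Mirlet7a-1, Mirlet7f-1 and Mirlet7d lie in this order of transcription, with starts 350 and 1817 bases apart, and all overlap exons of the lincRNA gene 6720427I07Rik. Mirlet7d exceeded Mirlet7a-1 by 72.2 times in library 1 (95% interval 68.6 to 76.1) and 57.5 times in library 2 (54.7 to 60.5), which is 6.01 ± 0.232 as a mean log2 ratio (SD, n = 2). It exceeded Mirlet7f-1 by 209.9 times in library 1 and 210.4 times in library 2, or 7.72 ± 0.00203 in mean log2 ratio. Mirlet7a-1 stood above Mirlet7f-1 by 2.91 times in library 1 and 3.66 times in library 2.

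On chromosome 15, Mirlet7b follows Mirlet7c-2 with starts 716 bases apart, and both overlap exons of Lncppara, annotated as a processed transcript. Mirlet7b exceeded Mirlet7c-2 by 41.0 times in library 1 (39.4 to 42.7) and 35.0 times in library 2 (33.7 to 36.3), or 5.24 ± 0.162 in mean log2 ratio. On chromosome X, Mir98 follows Mirlet7f-2 within Huwe1 with starts 868 bases apart. Mirlet7f-2 exceeded Mir98 by 3.44 times in library 1 (3.32 to 3.56) and 4.20 times in library 2 (4.04 to 4.37), or 1.93 ± 0.204 in mean log2 ratio. In this last pair the locus with the repeated 5p RNA was the higher one, and in the clusters of chromosomes 13 and 15 it was the lower one. All these ratios are of uniquely placed reads, in which a locus with a repeated 5p RNA can stand too low.

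**Figure D2:**
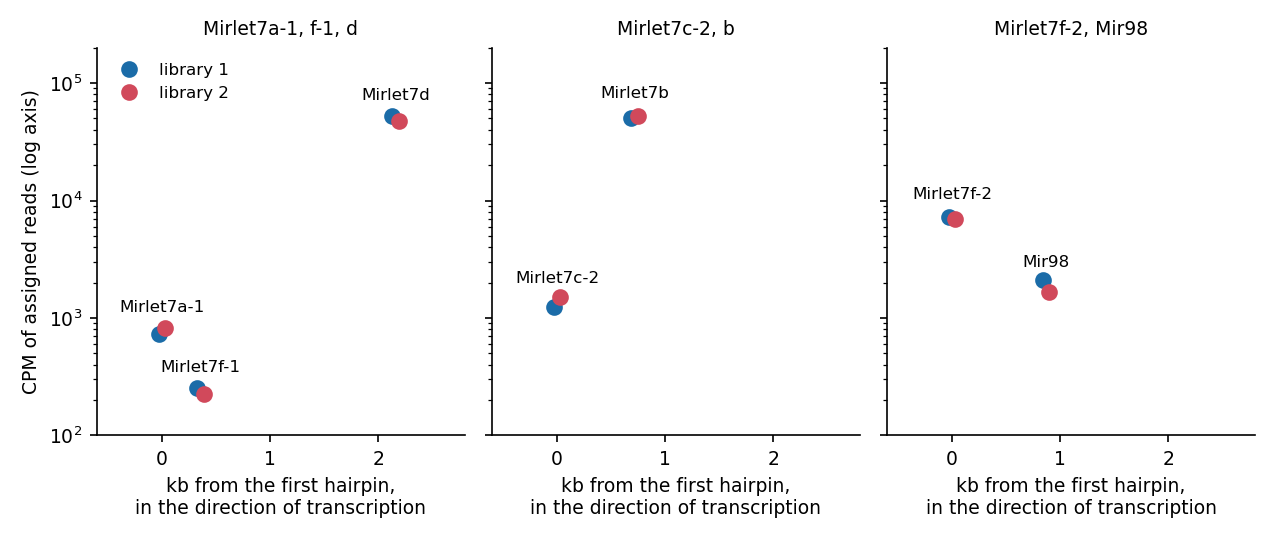
The level of each clustered let-7 locus, in CPM on a log axis, is drawn against its distance in kb from the first hairpin of its cluster, with 1 point per library. Levels are of uniquely placed reads. Mirlet7d and Mirlet7b lie above the other loci of their clusters, and Mirlet7f-2 lies above Mir98.

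The clusters of chromosomes 13 and 15 held similar shares of the uniquely placed reads, most of them from Mirlet7d and Mirlet7b. Mirlet7d alone took 5.27% of assigned reads in library 1 and 4.74% in library 2, and Mirlet7b alone took 5.09% and 5.23%. The chromosome 13 loci took 5.37% of assigned reads in library 1 and 4.85% in library 2, a mean of 5.11% ± 0.368. The chromosome 15 loci took 5.21% and 5.38%, a mean of 5.30% ± 0.120. The chromosome X loci took 0.934% and 0.870%. Mirlet7i and Mirlet7g, which have no other core let-7 locus within 10 kb, took 18.4% and 16.0% together.

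The make-up of the let-7 reads, which does not depend on how a library is scaled, was close in the libraries. Mirlet7i gave 32.6% of the reads of the 9 loci in library 1 and 32.3% in library 2, and Mirlet7d gave 17.6% and 17.5%. Mirlet7g gave 29.0% in library 1 (95% interval 28.9% to 29.1%) and 26.7% in library 2 (26.6% to 26.8%). Mirlet7b gave 17.0% (16.9% to 17.1%) and 19.3% (19.2% to 19.4%). The share of Mirlet7g was thus larger in library 1 and that of Mirlet7b larger in library 2, each by a little over 2 percentage points.

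Among the minor loci, Mirlet7f-2 gave 2.42% in library 1 and 2.60% in library 2, and Mir98 gave 0.703% and 0.618%. Mirlet7c-2 gave 0.415% and 0.553%, Mirlet7a-1 0.244% and 0.305%, and Mirlet7f-1 0.0839% and 0.0833%. The intervals of the libraries overlapped for Mirlet7i, Mirlet7d and Mirlet7f-1 and did not overlap for the other 6 loci, a comparison of these libraries on counting error alone.

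**Figure D3:**
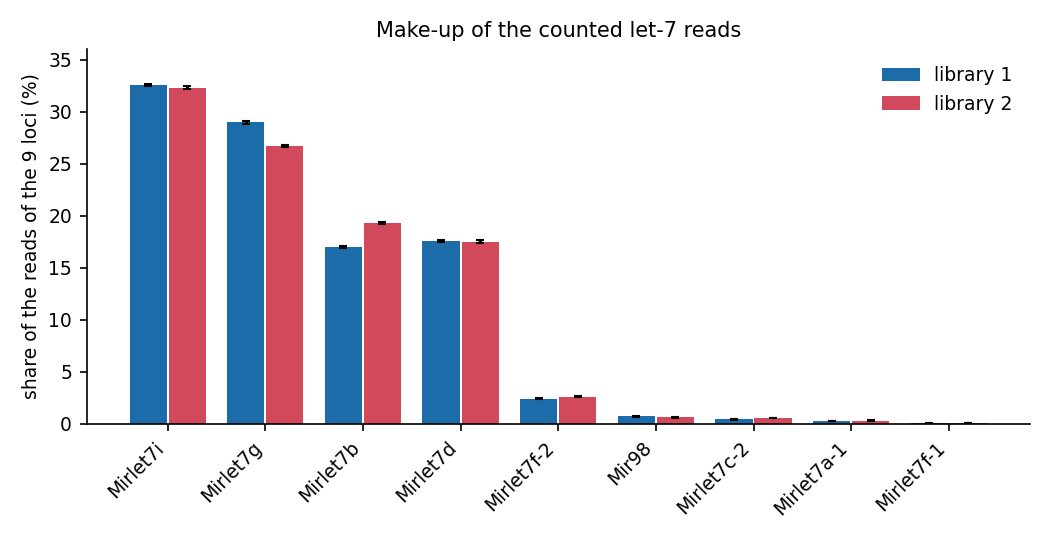
Bars give the share of each locus, in percent, in the reads of the 9 loci of library 1 (left bar) and library 2 (right bar), with exact 95% intervals of counting error. Mirlet7g stands at 29.0% and 26.7%, and Mirlet7b at 17.0% and 19.3%.

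Between the libraries, no let-7 locus moved by as much as 1.5-fold. Of the 344 genes that reached 10 counts over the 2 libraries together, 144 (41.9%) lay past 1.5-fold, and none of the 9 loci did. Of the 69 genes with a mean level of at least 1000 CPM, 20 (29.0%) did, and none of the 7 loci there did. With 1 library on each side there is no replicate check and no p-value. The median absolute log2 ratio was 0.16 over the 9 loci, 0.36 over the other 62 of those genes and 0.46 over all tested genes.

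On the log2 scale, the ratio of library 1 to library 2 by assigned totals was above 0 at 6 loci and below 0 at 3. The highest was Mir98 at 0.33 (95% interval of counting error 0.26 to 0.40) and the next Mirlet7g at 0.26 (0.25 to 0.27). The lowest was Mirlet7c-2 at -0.27 (-0.35 to -0.19), with Mirlet7a-1 at -0.18 (-0.28 to -0.07) and Mirlet7b at -0.04 (-0.05 to -0.03). The interval of Mirlet7f-1, the locus with the fewest reads, held 0 (-0.03 to 0.35).

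The direction of 4 of these 9 small ratios rested on the scaling. The median log2 ratio of all tested genes was 0.19, and TMM scaling, which takes a trimmed mean of the ratios as its centre, lowers each of them by 0.19. With TMM, past 1.5-fold lay 39.5% of tested genes and again 0 of the 9 loci, and 2 loci were above 0, Mirlet7g (0.07) and Mir98 (0.14), and 7 below. The sum of the 9 loci stood at 0.14 by assigned totals and at -0.05 by TMM. Mirlet7c-2 was the lowest by both, at -0.46 by TMM, and no locus passed 1.5-fold by either. Among the 61 genes outside let-7 with a mean level of at least 1000 CPM, Mir20a (0.16), Mir125a (0.13) and Mir10a (0.11) had the log2 ratio nearest to that of the 9 loci summed. This likeness rests on 2 libraries.

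**Figure D4:**
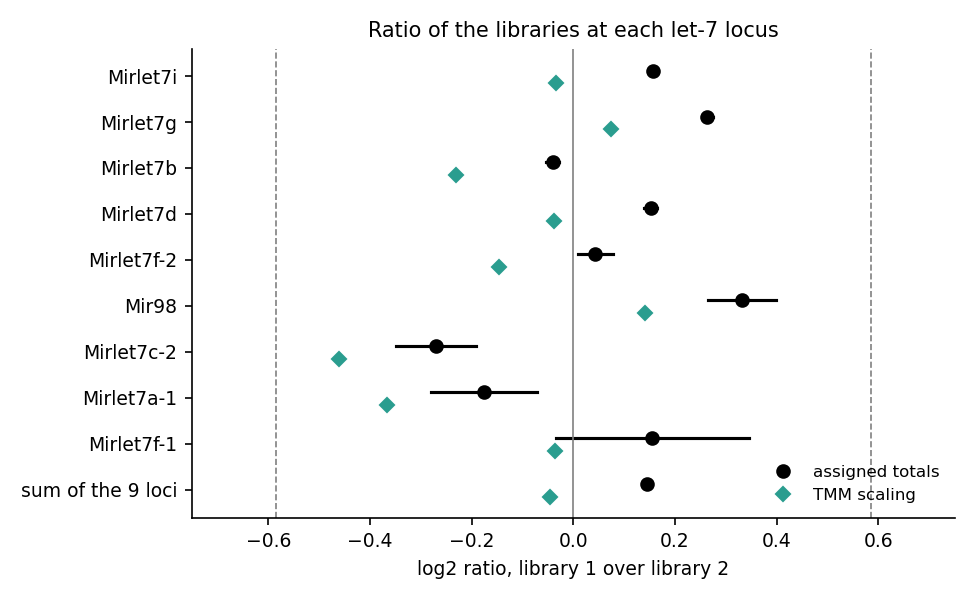
Black circles give the log2 ratio of library 1 to library 2 at each let-7 locus by assigned totals, with bars for the 95% interval of counting error, and green diamonds give the same ratio with TMM scaling. All symbols lie between the dashed lines at 1.5-fold.

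**Figure D5:**
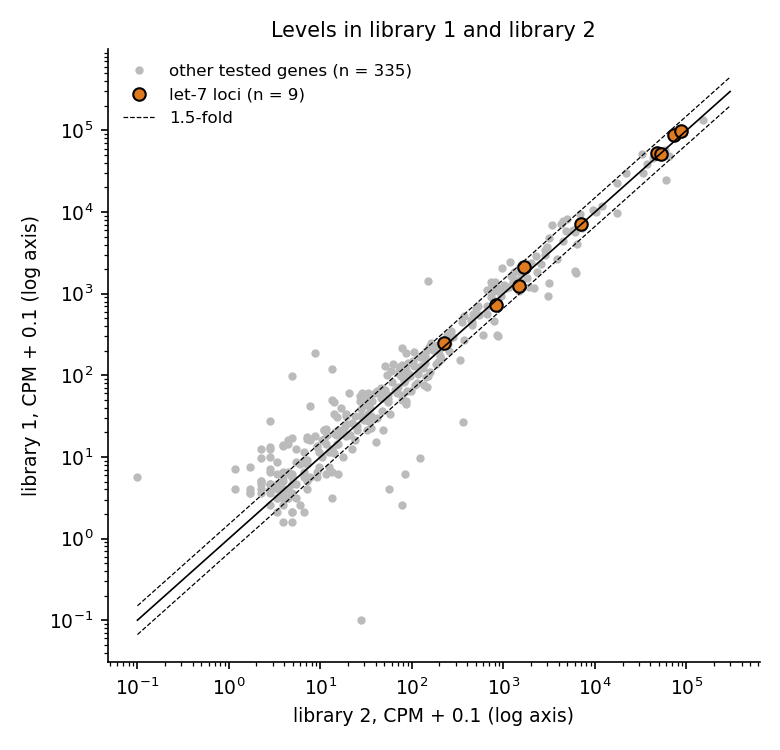
Each dot is 1 of the 344 tested genes, with its level in library 2 on the x axis and in library 1 on the y axis, both as CPM + 0.1 on log axes; the solid line marks equal levels and the dashed lines 1.5-fold. The 9 let-7 loci lie within the dashed lines.

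Markers of cardiac muscle, of other heart cells and of other tissues were read in both libraries, and the source of those reads was not tested. All 7 cardiac muscle markers had reads, 0.856% of assigned reads in library 1 and 0.670% in library 2. Mir208a stood at 7004 and 3393 CPM in libraries 1 and 2 and Mir499 at 1336 and 3141 CPM, so these moved in opposite directions. The loci Mir133a-1, Mir133a-2 and Mir1a-1 had 2 to 6 reads in a library. All marker counts are of uniquely placed reads, so a marker with copies elsewhere can stand too low. Low counts at these loci therefore do not show that their mature RNAs were scarce. For the same reason, the shares of the marker lists cannot be ranked against one another. Of the 6 neuronal markers, 5 were at 0 in both. The endothelial marker Mir126a took 4.89% in library 1 and 6.38% in library 2, both smooth muscle markers 3.95% and 3.87%, the 4 fibroblast markers 0.248% and 0.120%, the 4 leukocyte markers 0.536% and 0.495%, and the 3 erythroid markers 0.245% and 0.197%. Skeletal muscle markers had 197 reads in library 1 and 10 in library 2, the liver marker Mir122 237 and 25, the epithelial markers 920 and 1764, and the stem cell markers 25 and 455. The part of these differences in the let-7 ratios was not tested, and fewer cells of a type and less RNA per cell cannot be told apart in whole tissue.

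The 9 core loci carried most of the counted let-7 reads. The 3 loci within the mir-99/let-7/mir-125 clusters, Mirlet7e, Mirlet7c-1 and Mirlet7a-2, took 0.718% of assigned reads in library 1 and 0.786% in library 2, against the 29.9% and 27.1% of the 9 core loci. Mirlet7e, in an intron of Spaca6 and with a 5p RNA in no other hairpin, stood at 6453 and 7159 CPM, near Mirlet7f-2. Mirlet7c-1 stood at 415 and 456 CPM, and Mirlet7a-2 at 309.6 and 243 CPM.

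The remaining annotated let-7 loci were lower than all 9. Mir7j, whose mature RNA let-7j reads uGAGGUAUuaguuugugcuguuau with a seed that differs from that of the 9 loci in its last base, had 64 reads in library 1 and 52 in library 2 (32.0 and 27.9 CPM). Mir7k had 0 reads in both, so a level of up to 1.5 CPM in library 1, or 1.61 CPM in library 2, would go unseen (3 counts).

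Reads at the 9 loci came from the sense strand. The antisense counts were 2 reads in each library at Mirlet7b and 1 read in library 2 at Mir98, and 0 at the other 7 loci. Mirlet7f-1 is the only 1 of the 9 with an annotated miRNA gene opposite it, Gm24111 (48537825 to 48537921, plus strand), which had 0 sense reads. With both strands counted together, Mirlet7f-1 was listed at 0 in both libraries against 502 and 420 sense reads.

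Features of the hairpins were read from sequence and played no part in the choice by name. The 9 hairpins have 83 to 108 bases (median 89), against a median of 79 over 968 miRNA hairpins with a RefSeq sequence. The GC content was 39.3% to 54.1% (median 44.7%), against a median of 51.7% over all, and Mirlet7b, Mirlet7c-2, Mirlet7g and Mirlet7i lay above that median. The stretch between the mature arms has 26 to 36 bases (median 32), against 23 in each of the 3 cluster let-7 loci and a median of 16 over 627 hairpins with both arms. The minimum free energy from RNAfold had a median of -0.475 kcal/mol per base, against -0.405 kcal/mol per base over all hairpins.

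The letters GGAG, known as the contact of the zinc knuckles of Lin28, were searched on the hairpin's own strand between the arms. They were found in 6 of the 9 loci, Mirlet7a-1, Mirlet7d, Mirlet7f-1, Mirlet7f-2, Mirlet7g and Mirlet7i, and in all 3 cluster let-7 loci, against 52 of 627 hairpins (8.29%). Mirlet7b, Mirlet7c-2 and Mir98 did not hold them in this window. The 6 loci with the letters spanned 238 to 92476 CPM and the 3 without them 1369 to 51621 CPM, so the levels of these sets overlapped.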

How the data were processed

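Short RNAs of mouse heart were sequenced in 2 libraries of 1 group. The deposited tables hold raw counts of reads per miRNA gene, not normalized by the authors. Their 3 columns were read from the values as both strands together, sense and antisense. Per the text deposited beside them, the assembly is mm10 and the annotation GENCODE M21. How reads were aligned and counted is not stated in those sources. The first 4 rows name no gene and were kept out of totals: of all reads in libraries 1 and 2, 41.5% and 42.9% mapped to several places, and 36.5% and 38.1% were sense reads of miRNA genes. All 2202 identifiers matched M21.

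CPM were computed over assigned sense reads. Shares have exact Clopper-Pearson 95% intervals, and ratios exact conditional binomial ones. Only the ratio intervals were tried on simulated data, with independent counts that lack PCR copies and spread between replicates. Their coverage in the present libraries was therefore not tested. Log2 ratios had 0.5 added to each count, and genes with 10 or more counts summed were compared at 1.5-fold. The libraries differed by more than independent sampling of reads would give (chi-square 92268 on 343 degrees of freedom over 344 genes). PCR copies are not independent, so the size of this statistic does not tell how far the samples differ. Alternatives were TMM (edgeR 4.0.16), DESeq2 1.42.0 size factors, other denominators, both strands, other thresholds and added counts, and each library left out. Sequences are RefSeq's (GRCm38.p6, the build of mm10); shared stretches were searched in the annotated miRNA hairpins and not in the genome. Folding used RNAfold 2.7.2. All 9 loci, the other let-7 loci and the 3 genes nearest in ratio are named. The members and lists were chosen with earlier results of these data known.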

Additional observations from a re-analysis of the deposited data

Results flagged for a closer look

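Reads that mapped to several places, 2273922 in library 1 and 2098983 in library 2, were counted at no gene. Which genes they came from was not tested. A further 388743 reads in library 1 and 258688 in library 2 were listed under no feature in the sense counts. A group of 2 libraries is too small for a test of outlying samples.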

How the results depend on the processing

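The summed share of the 9 loci, 28.5%, was 36.9% with both strands counted together, where ambiguous reads leave the total, 10.6% of all reads, and 33.3% with Mir378a left out of the total. Counting only the 5 loci with a 5p RNA in no other hairpin it was 27.6%. The other 4 loci held 3.35% of the counted reads of the 9 loci, so leaving them out could move the share only a little. The effect of reads that mapped to several places was not tested by this. The summed log2 ratio of library 1 over library 2, 0.14, was -0.0451 with TMM, -0.0448 with DESeq2 size factors, 0.0839 over all reads, 0.0970 with both strands and 0.12 without Mir378a. At single loci, 4 of 9 ratios changed sign with TMM and with DESeq2 size factors, 1 over all reads and 1 of 8 with both strands, where Mirlet7f-1 gave no value, and 0 with other added counts. The count of genes past 1.5-fold, 144, was 389 without a filter, 75 at 100 or more counts and 73 at 2-fold, while 0 of the 9 loci passed under each of these and under TMM, DESeq2 size factors and 1 added count. At 10000 CPM or more stood 4 loci, against 7 at 1000. Leaving out each library in turn, the share was 27.1% to 29.9%, and every ratio within a cluster kept its direction. Per 100 nt of hairpin, an alternative chosen after seeing the data, all 9 loci kept their place in the order. No paired analysis was possible because there is 1 group only. Depth limits Mirlet7f-1 most, which has the fewest reads and the widest interval of the 9 loci.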
